A study of Mus musculus with 12 samples.

Results

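Chl1, Hmga2 and Sntg1 are 3 of the 31053 genes listed for 12 single-nucleus libraries of mouse lung, and they were chosen by their high raw UMI counts (unique molecular identifiers, each standing for a captured RNA molecule) in fibroblasts of a single group, the bleomycin-injured lungs given vehicle. That fibroblast pattern therefore chose the genes, and it is given below as a description with no test. The libraries came from frozen lungs of C57BL/6J mice, 1 library per mouse and 3 libraries per group. Mice received PBS or bleomycin, a drug that injures the alveolar epithelium and is used to model pulmonary fibrosis, into the trachea at 7 weeks of age. From day 5 they were gavaged daily for 5 days with vehicle or with NVP-BHG712, an inhibitor of the receptor kinase EphB4, and lungs were taken on day 14. The groups are called PBS_vehicle (PBS, then vehicle), PBS_NVP (PBS, then inhibitor), Bleo_vehicle (bleomycin, then vehicle) and Bleo_NVP (bleomycin, then inhibitor).

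The 3 genes have unrelated roles. Chl1 (close homolog of L1) encodes a cell adhesion molecule of the L1 family, known from axon guidance and neuronal migration, whose cytoplasmic tail binds ankyrins. Hmga2 encodes an architectural chromatin protein with AT-hooks that is abundant in embryonic mesenchyme, is largely silent in adult tissue, is repressed by let-7 microRNAs and can be induced by TGF-beta. Sntg1 encodes gamma-1 syntrophin, an adaptor of the dystrophin complex that is best known from brain. Fibroblasts are the matrix-producing cells of the lung interstitium, and after bleomycin a part of them takes on a state rich in matrix and matrix-remodelling genes.

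In the GENCODE M21 annotation of GRCm38/mm10, Chl1 (ENSMUSG00000030077) spans chr6:103510586-103750211 on the plus strand, 239626 bases of which 94.9% are intronic. Hmga2 (ENSMUSG00000056758) spans chr10:120361275-120476469 on the minus strand, 115195 bases and 94.1% intronic. Sntg1 (ENSMUSG00000025909) spans chr1:8361475-9299878 on the minus strand, 938404 bases and 98.8% intronic. Counting in nuclei takes in intronic reads, so loci of this kind gather UMIs along their introns, and levels were compared within a gene and not between genes. Each locus overlaps other annotated genes on the same strand, 5 predicted genes or small RNAs for Chl1, 1 microRNA (Mir763) for Hmga2 and 10 for Sntg1, whose reads could not be separated here.

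The upstream sequence is shown for Hmga2, the gene nearest to silence outside Bleo_vehicle fibroblasts, as the 250 bases before its start in RefSeq (GRCm38.p6, chr10:120476470-120476719, minus strand), with a GC box match in capitals.
Hmga2: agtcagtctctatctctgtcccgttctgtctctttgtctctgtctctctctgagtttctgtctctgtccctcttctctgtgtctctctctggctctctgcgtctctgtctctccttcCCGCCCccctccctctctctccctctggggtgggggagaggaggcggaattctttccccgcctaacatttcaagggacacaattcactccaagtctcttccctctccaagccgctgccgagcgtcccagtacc
This stretch was 70.8% C or T, more than 99.586% of the 32851 mouse promoters of the same length, whose median was 50%. Of 5 motifs searched on both strands, only the GC box (GGGCGG) was found, at position -133 from the start, and 32.7% of all promoters hold it. AP-1 (TGANTCA, in 6.75% of promoters), TEAD (GGAATG, 12.6%), E-box (CANNTG, 66.2%) and SMAD (CAGACA, 17.1%) letters were not in this window. None of the 5 motifs was in the upstream window of Chl1. The promoter table matched 2 of the 3 genes.

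The files held 49163 barcodes with 184940649 UMIs, 3556084 to 61947690 per library, and 44611 nuclei were kept, of which 9499 lay in clusters named fibroblast-like from their markers and are called fibroblasts here. Between any pair of libraries at most 34 barcodes were shared. The Bleo_vehicle libraries stood apart: their median mitochondrial share was 2.56%, 1.32% and 0.668% against at most 0.05% in the other 9. They carry the labels batch 6, 6 and 7, the Bleo_NVP libraries all carry run 4 and the PBS libraries runs 1 to 3, so every comparison of Bleo_vehicle with another group is also one between batches or runs, and the 2 cannot be told apart. No batch or run holds both groups, so there is no within-batch value. The fibroblast marker list (14 genes) summed to 4600 to 6637 UMIs per 1000000 (CPM) in Bleo_vehicle fibroblasts and 7076 to 9733 in the other libraries.

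Chl1 was close to absent from fibroblasts in 3 of the groups and plentiful in each Bleo_vehicle library. Its fibroblast UMIs were 2, 4 and 0 in PBS_vehicle, 3, 2 and 4 in PBS_NVP, 323, 418 and 532 in Bleo_vehicle, and 1, 3 and 3 in Bleo_NVP. In CPM, UMIs per 1000000 fibroblast UMIs, the Bleo_vehicle libraries held 408, 136 and 60.4, a mean of 202 ± 183 (SD, n = 3), and the highest of the other 9 held 2.44. The groups did not overlap, but the Bleo_vehicle libraries spread widely among themselves, and the mean was 98.4 without library 1. Against the pooled PBS_vehicle level of 0.691 CPM, which rests on 6 UMIs, the libraries were 591, 197 and 87.4-fold higher. The fitted log2 difference of Bleo_vehicle from PBS_vehicle was 8.05 and that of Bleo_NVP from Bleo_vehicle was -6.95. Both use the same Bleo_vehicle libraries.

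Hmga2 was likewise highest in each Bleo_vehicle library, at far fewer molecules. Its fibroblast UMIs were 2, 0 and 0 in PBS_vehicle, 0 in each PBS_NVP library, 91, 35 and 90 in Bleo_vehicle, and 0, 1 and 0 in Bleo_NVP. The Bleo_vehicle levels were 115, 11.4 and 10.2 CPM (mean 45.5 ± 60.2, SD, n = 3), and the mean fell to 10.8 without library 1. Against PBS_NVP, where 2656 fibroblasts held no UMI, the 3 libraries were at least 426-fold, 42.3-fold and 37.9-fold higher, taking 3 UMIs over the group as the floor. Floors and intervals of this kind cover counting error only. The fitted log2 differences were 7.31 for Bleo_vehicle from PBS_vehicle and -7.31 for Bleo_NVP from Bleo_vehicle, and fitted values of a gene at 0 depend on the prior count.

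Sntg1 differed from the other two in having fibroblast UMIs in every library. They numbered 96, 18 and 17 in PBS_vehicle, 111, 4 and 12 in PBS_NVP, 84, 206 and 963 in Bleo_vehicle, and 8, 37 and 11 in Bleo_NVP. In CPM, PBS_vehicle held 19.5, 8.41 and 10.4, PBS_NVP 16.0, 1.58 and 7.33, Bleo_vehicle 106, 67.2 and 109 (mean 94.2 ± 23.5, SD, n = 3), and Bleo_NVP 7.76, 17.1 and 6.87. Bleo_vehicle lay above every other library, and its libraries lay closer together in proportion than those of Chl1 or Hmga2. The Bleo_vehicle libraries were 7.04, 4.45 and 7.25-fold above pooled PBS_vehicle, and the fitted log2 differences were 2.79 and -2.97.

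**Figure D1:**
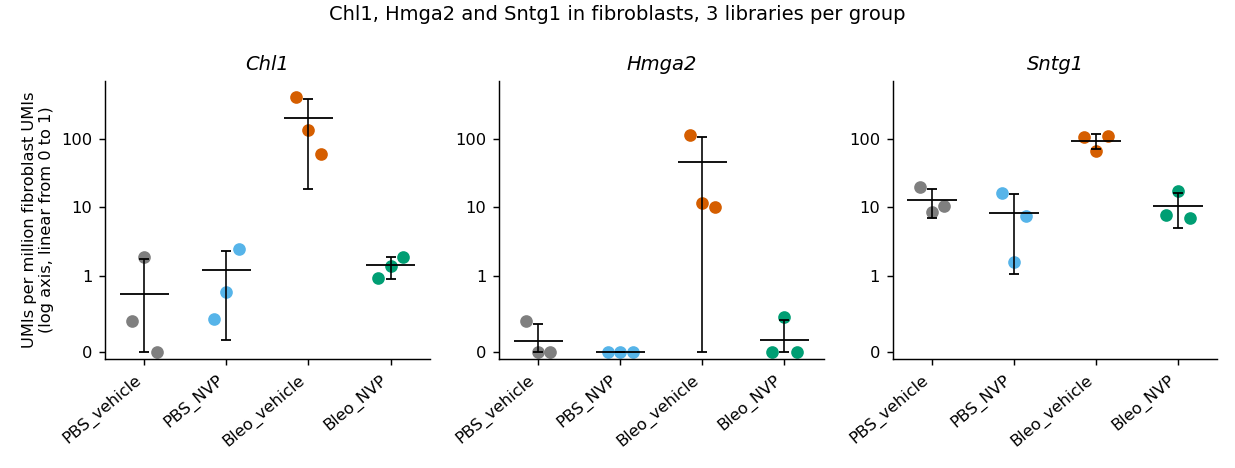
Levels of Chl1, Hmga2 and Sntg1 in fibroblasts (y axis, CPM, log scale with a linear part near 0) in the 3 libraries of each group. Points are libraries, bars are the mean ± SD with the lower end stopped at 0, and the Bleo_vehicle points lie above all others in each panel.

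The molecules came from few nuclei. In Bleo_vehicle, 304 of 4054 fibroblasts (7.50%) held a Chl1 UMI, 33 (0.81%) an Hmga2 UMI and 446 (11.0%) an Sntg1 UMI. Among general capillary nuclei of the same libraries, a class in which none of the 3 genes is a known marker, the shares were 1.20%, 0.172% and 1.80%, at a median of 915, 948 and 1771 UMIs per nucleus against 1003 to 3786 in fibroblasts without Chl1. At an equal depth of 500 UMIs per nucleus, Chl1 was found in 10.9%, 4.55% and 1.62% of Bleo_vehicle fibroblasts, Hmga2 in 1.76%, 0.343% and 0.148%, and Sntg1 in 5.81%, 2.71% and 3.72%. The highest shares in the other 9 libraries at that depth were 0.155%, 0.019% and 0.779%. No nucleus had to be left out at 500 UMIs.

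Hmga2 was the most concentrated of the 3. The 5 nuclei with most Hmga2 held 83.5%, 71.4% and 97.8% of its fibroblast UMIs in the 3 Bleo_vehicle libraries, and the fullest nucleus held 30, 12 and 53. Without those 5 nuclei per library the mean Bleo_vehicle level was 7.48 CPM. For Chl1 the 5 fullest nuclei held 37.5%, 20.1% and 43.8%, with at most 34, 25 and 55 UMIs in a nucleus, and the mean without them was 133 CPM. For Sntg1 they held 28.6%, 22.8% and 21.8%, and 71.1 CPM remained. The values without the 5 nuclei were added after the data had been seen. In the other groups a fibroblast with Chl1 almost always held 1 UMI, and the fullest held 3.

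**Figure D2:**
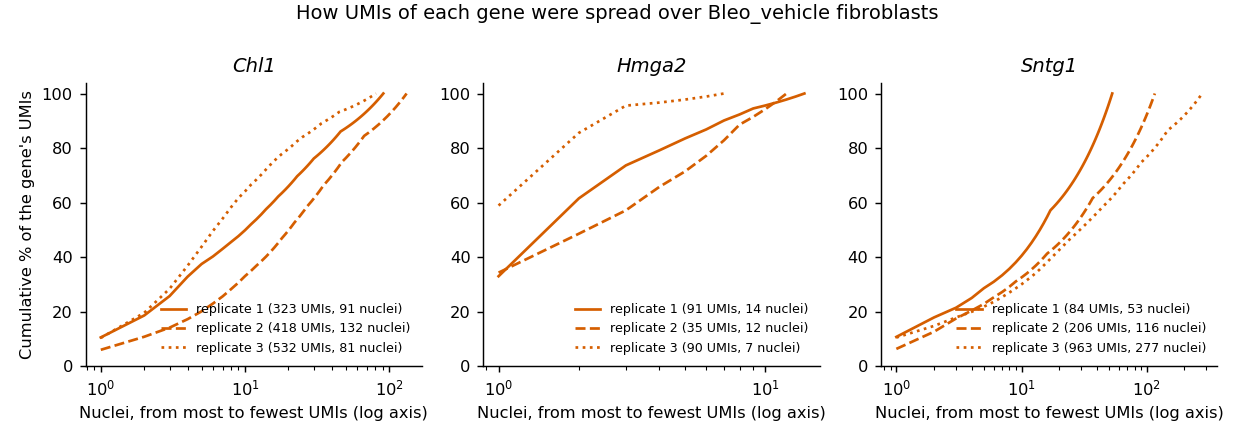
Cumulative percent of each gene's fibroblast UMIs (y axis) against nuclei ranked from the fullest (x axis, log scale), 1 line per Bleo_vehicle library. The Hmga2 lines reach 71.4% to 97.8% within 5 nuclei, and the Sntg1 lines 21.8% to 28.6%.

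Within Bleo_vehicle fibroblasts pooled over libraries, most Chl1 and Hmga2 UMIs lay in the same subcluster, and most Sntg1 UMIs did not. Subclusters were named from state markers, and the clustering used variable genes other than these 3. Setting a subcluster against the rest is no test, so the following is a description. The fibrotic-like subcluster (Runx1, Thbs1, Chst11 and Piezo2 among its leading genes) held 176, 368 and 417 Bleo_vehicle nuclei. It carried 161, 277 and 425 of the 323, 418 and 532 Chl1 UMIs of Bleo_vehicle fibroblasts, 67.8% when pooled. Chl1 stood at 418, 392 and 241 CPM in it, against 408, 136 and 60.4 over all fibroblasts. In library 1 the 2 levels were thus close. It carried 88, 17 and 86 Hmga2 UMIs, 88.4% of the total, at 229, 24.1 and 48.8 CPM. For Sntg1 it held 37, 83 and 157 of 84, 206 and 963 UMIs, 22.1% when pooled, and most of the pooled UMIs came from library 3. The levels of Chl1 were closer between libraries here than over all fibroblasts.

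Nuclei of the same subcluster in the other groups held almost none of the 2 genes. It held 292 PBS_vehicle nuclei with 1 Chl1 UMI, 503 PBS_NVP nuclei with 4 and 212 Bleo_NVP nuclei with 1, and no Hmga2 UMI in any of them. At the finer resolution of 0.8 it split, and the part still named fibrotic-like (548 Bleo_vehicle nuclei, led by Chl1 itself, Thbs1, Kif26b and Tnc) held 175, 209 and 431 Chl1 UMIs at 523, 505 and 479 CPM. That part also held 85, 16 and 86 Hmga2 UMIs, 86.6% of the total. In the other groups it held 129 PBS_vehicle nuclei with 0 Chl1 UMIs, 244 PBS_NVP nuclei with 4 and 105 Bleo_NVP nuclei with 1, and no Hmga2 UMI. The remaining large part, 609 Bleo_vehicle nuclei, held 171 Chl1 UMIs and 1 Hmga2 UMI, and shared the most nuclei with the original subcluster. Which part stands for the subcluster therefore decided the level of Hmga2, at a mean of 130 or 0.716 CPM, and the marker-named part was taken after these values had been seen.

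Sntg1 was spread over the fibroblast states. The alveolar-like subcluster held 3, 48 and 407 of its UMIs and the adventitial-like subcluster 7, 15 and 261, the latter at 187, 73.7 and 335 CPM. In the alveolar-like subcluster Chl1 had 58, 28 and 41 UMIs, and the 58 of library 1 lay in 3 nuclei. The adventitial-like subcluster held 9, 27 and 8 Chl1 UMIs and no Hmga2. An unnamed subcluster led by alveolar type I genes (Lmo7, Rtkn2, Col4a3) held 49, 45 and 35 Chl1 UMIs and 3, 17 and 0 Hmga2 UMIs. A further unnamed subcluster, led by mitochondrial transcripts and the largest in Bleo_vehicle at 1197 nuclei, held 63 Chl1, 2 Hmga2 and 138 Sntg1 UMIs.

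**Figure D3:**
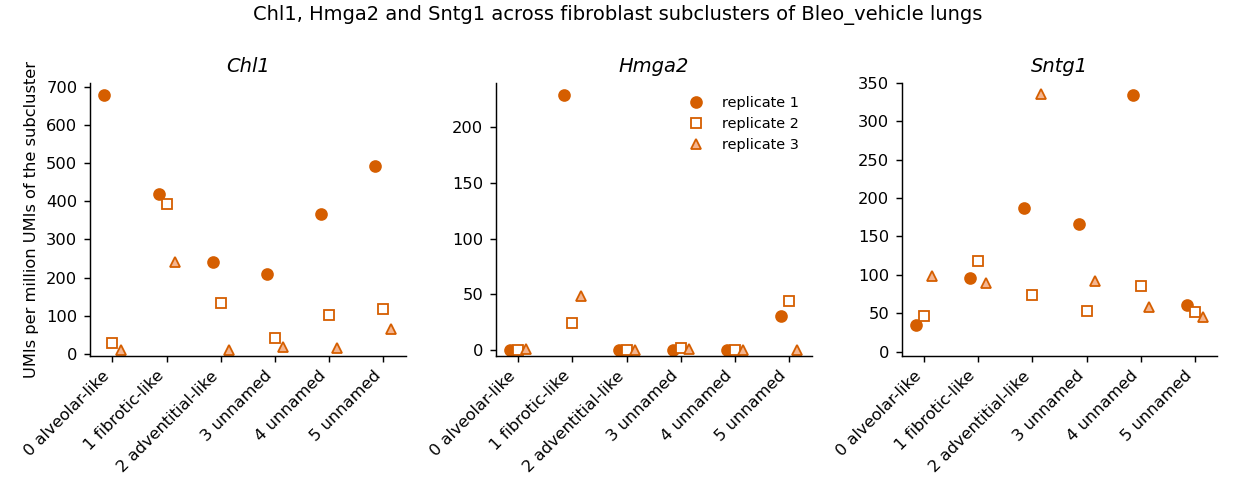
Levels of the 3 genes (y axis, CPM, linear) in the 6 largest of the 8 fibroblast subclusters (x axis) of the Bleo_vehicle libraries, 1 point per library. In the fibrotic-like subcluster Chl1 lies at 241 to 418 and Hmga2 at 24.1 to 229, Sntg1 reaches 335 in the adventitial-like subcluster, and the Chl1 point of library 1 in the alveolar-like subcluster (679) rests on 3 nuclei.

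Although Chl1 and Hmga2 shared a subcluster, they were rarely seen in the same nucleus. Of 304 Bleo_vehicle fibroblasts with Chl1, 3 also held Hmga2 (0.987%), against 0.8% of those without Chl1, and with 33 Hmga2 nuclei in all a difference was not detectable at this depth. The mean of the per-library differences had the opposite sign, at -0.45 percentage points. Hmga2 and Sntg1 met in 2 nuclei. Chl1 and Sntg1 met in 58 nuclei: Sntg1 was found in 25.3%, 16.7% and 16.1% of fibroblasts with Chl1 and in 7.98%, 6.37% and 13.9% of those without. All 3 libraries had the higher share with Chl1, and the gap was smallest in library 3, the deepest. By level, Sntg1 stood at 224, 168 and 92.9 CPM with Chl1 and at 62.4, 55.4 and 110 without, so library 3 went the other way. Nuclei with Chl1 had a median of 1519, 1562 and 3525 UMIs and those without 1003, 1272 and 3786. At an equal depth of 500 UMIs per nucleus, Sntg1 was found in 11.2%, 6.17% and 4.18% of fibroblasts with Chl1. The shares in those without Chl1 were then 4.50%, 2.40% and 3.70%. The gap at equal depth was not tested.

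The nuclei that held each gene were also compared by state. Of fibroblasts with Chl1, 50.5%, 52.3% and 54.3% lay in the fibrotic-like subcluster, against 34.6%, 20.3% and 19.7% of those without. For Hmga2 the shares were 85.7%, 66.7% and 42.9%, of only 14, 12 and 7 nuclei. For Sntg1 they were 37.7%, 31.9% and 19.5% with and 37.7%, 22.2% and 21.3% without, with no single direction over the libraries. The summed fibrotic state list, which includes Adam12, Runx1, Ltbp2 and Fst, stood at 10865, 2447 and 799 CPM in Hmga2 nuclei and 2956, 573 and 492 in the others. In Chl1 nuclei it stood at 1705, 901 and 1163 CPM against 4314, 565 and 462, so it was lower with Chl1 in library 1 and higher in libraries 2 and 3.

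Genes that went with Chl1 nucleus by nucleus were ranked by the smallest ratio, over the 3 Bleo_vehicle libraries, of the level in fibroblasts with a Chl1 UMI to that in the rest (CPM + 10). The leading 5 were Nos1ap, an adaptor of neuronal nitric oxide synthase, Cyp7b1, an oxysterol hydroxylase, Brinp1, a secreted neural protein, Slc39a14, a zinc transporter, and Ndnf, a secreted neurotrophic factor. Their smallest log2 ratios were 1.48, 1.28, 1.23, 1.18 and 1.18. Brinp1 stood at 1346, 609 and 825 CPM in nuclei with Chl1 and at 408, 254 and 209 in those without. For Sntg1 the ratios were smaller, led by Cyp7b1 at 0.42, Rad51b at 0.37, Thsd7a at 0.35, Pcdh7 at 0.31 and Mark1 at 0.28. Hmga2 was not ranked, since no library had 20 nuclei with it.

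Across the 12 fibroblast sums, each gene was also set beside the 9851 genes that could be ranked, by Pearson's r of log2(CPM + 1). Nearest to Chl1 were the mitochondrial transcripts mt-Nd1, mt-Atp6 and mt-Nd4, the Wnt receptor Ror1 and the secreted phosphoprotein Spp1, with r of 0.97 to 0.98. Nearest to Hmga2 were the sulfatase Sulf1, Retnla, Klhl6, Tshz2 and the prolyl hydroxylase subunit P4ha3, also at 0.97 to 0.98. Nearest to Sntg1 were the ribosomal protein genes Rps3, Rpl35 and Rps27a, with Csmd1 and Ptpru, at 0.92 to 0.96. All 12 points share the contrast of Bleo_vehicle with the rest and differ in depth. The Bleo_vehicle libraries also had the highest mitochondrial shares, given above, and the part of these in the correlations was not tested. Among nuclei of 500 UMIs or more whose mitochondrial share was no higher than 1%, the mean Bleo_vehicle levels were 224 CPM for Chl1, 62.7 for Hmga2 and 94.9 for Sntg1, against 202, 45.5 and 94.2 in all kept fibroblasts. The mean of Hmga2 hides opposite moves, since it stood at 180 CPM in library 1 but at 6.58 and 1.72 in libraries 2 and 3, each on 13 UMIs, against 115, 11.4 and 10.2.

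Other cell classes held these genes too, and these values did not choose them. In Bleo_vehicle, fibroblasts held 73.8% of all Chl1 UMIs in kept nuclei (1273 of 1726), 64.7% of those of Hmga2 (216 of 334) and 35.8% of those of Sntg1 (1253 of 3497). Sntg1 was highest in mesothelial-like nuclei, the lining cells of the pleura, where it is among the leading genes of the cluster. Its mesothelial UMIs were 171, 6 and 63 in PBS_vehicle, 488, 0 and 25 in PBS_NVP, 1, 64 and 1431 in Bleo_vehicle, and 9, 0 and 6 in Bleo_NVP. The class held 6 to 258 nuclei per library, and Sntg1 in it ranged from 0 to 1551 CPM with groups overlapping. They were not tested because only 1 Bleo_NVP library held 20 mesothelial nuclei. Venous endothelium came next among Sntg1 classes in Bleo_vehicle, at 172 CPM pooled against 98.9 in fibroblasts, and 211 of its 223 UMIs came from library 3.

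For Chl1, the next named class after fibroblasts (101 CPM pooled) in Bleo_vehicle was T or NK-like nuclei at 42.7 CPM. There, 23 of 25 UMIs came from 3 nuclei of library 2. Unnamed clusters are left out of this order. The largest of them, 839 nuclei of all groups with a median of 656 UMIs, held Chl1 at 54.7 CPM over all groups. Single nuclei set other high values: neuroendocrine-like nuclei, a rare airway class, held 9 Chl1 UMIs in 1 nucleus of PBS_vehicle library 2 and 11 in 1 nucleus of PBS_NVP library 2. In alveolar type II-like nuclei, Chl1 had 0 UMIs in 749 PBS_vehicle nuclei, but 22, 57 and 17 in PBS_NVP, from 1, 2 and 3 nuclei. Hmga2 outside fibroblasts was highest in Bleo_vehicle in neuroendocrine-like nuclei, at 42.6 CPM, from 12 UMIs in 2 nuclei. It was at 0 in mesothelial, pericyte, smooth muscle, venous and B-like nuclei there, which allows up to 3 UMIs over each class.

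**Figure D4:**
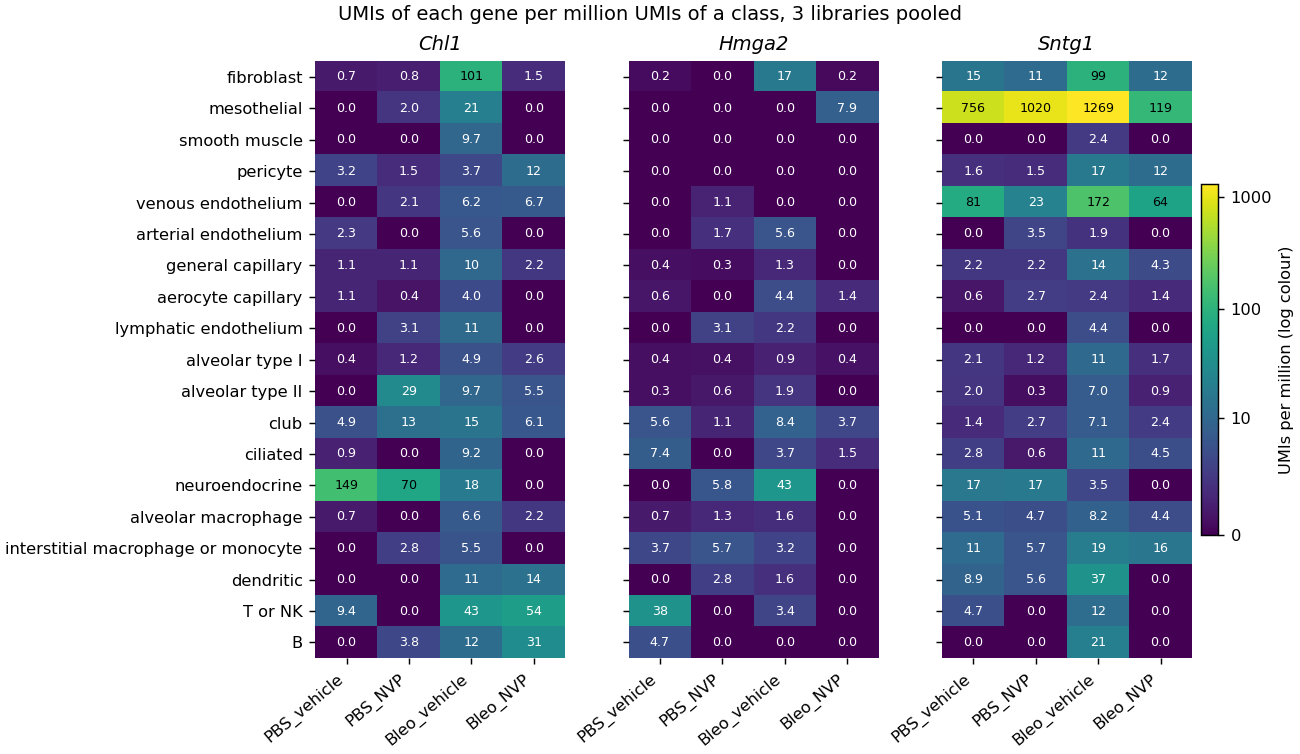
Levels of Chl1, Hmga2 and Sntg1 (CPM of the class, 3 libraries pooled, log colour) in 19 marker-named classes (rows) and the 4 groups (columns). Fibroblasts lead for Chl1 in Bleo_vehicle at 101, and mesothelial nuclei lead for Sntg1 in all 4 groups.

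Outside fibroblasts, no difference in Chl1 or Sntg1 between groups passed the edgeR test. All nuclei outside fibroblasts were summed per library and tested with edgeR (quasi-likelihood, Benjamini-Hochberg over all genes tested, two-sided). Chl1 had 9, 38 and 7 UMIs in PBS_vehicle, 50, 83 and 29 in PBS_NVP, 61, 199 and 193 in Bleo_vehicle, and 4, 18 and 18 in Bleo_NVP. The log2 difference of Bleo_vehicle from PBS_vehicle was 2.21 (SE 0.94, adjusted p = 0.257), where 1.85% of all 13628 genes tested were called. That of Bleo_NVP from Bleo_vehicle was -1.97 (SE 0.95, adjusted p = 0.219), with 4.44% of genes called. In CPM, Bleo_vehicle held 17.5, 18.9 and 5.13 outside fibroblasts.

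Sntg1 outside fibroblasts had 262, 42 and 70 UMIs in PBS_vehicle, 562, 9 and 37 in PBS_NVP, 69, 217 and 1958 in Bleo_vehicle, and 16, 24 and 23 in Bleo_NVP. Bleo_vehicle differed from PBS_vehicle by 1.14 on the log2 scale (SE 0.62, adjusted p = 0.373). Bleo_NVP differed from Bleo_vehicle by -2.42 (SE 0.70, adjusted p = 0.068). This call depended on the method, since DESeq2 gave -2.37 with an adjusted p of 0.0063, and 5 of 20 alternatives passed (adjusted p of 0.0063 to 0.199). Hmga2 had 23, 10 and 1, then 15, 4 and 2, then 21, 39 and 58, then 1, 2 and 5 UMIs in the groups in the same order, too few for the filter on low counts with all 12 libraries. In the settings where it entered the edgeR fit, its log2 differences were 1.06 to 2.01 for Bleo_vehicle from PBS_vehicle (adjusted p of 0.053 to 0.547, 14 settings) and -3.06 to -1.77 for Bleo_NVP from Bleo_vehicle (0.022 to 0.243, 13 settings). Of these, 1 passed, the latter difference without Bleo_vehicle library 3 (log2 -2.73, adjusted p = 0.022).

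Within single classes, 3 could be tested for a member. In alveolar type I-like nuclei, Sntg1 had 10, 8 and 0 UMIs in PBS_vehicle, 9, 1 and 3 in PBS_NVP, 23, 28 and 124 in Bleo_vehicle, and 3, 0 and 5 in Bleo_NVP. Bleo_vehicle, at 17.6, 10.1 and 10.2 CPM, lay above the other 9 libraries, of which the highest held 5.02. The log2 differences were 2.51 from PBS_vehicle (SE 0.72, edgeR adjusted p = 0.064, 4.1% of genes called) and -2.78 for Bleo_NVP from Bleo_vehicle (SE 0.79, adjusted p = 0.055, 5.47% called). DESeq2 called both, with adjusted p of 0.014 and 0.012, and so did edgeR with no filter on low counts (0.0015 and 0.00092). The latter difference also passed with only the 6 libraries compared, without batch correction, and without PBS_vehicle library 2 or 3. Over all 20 alternatives the adjusted p ran from 0.0015 to 0.177 and from 0.00092 to 0.154.

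In alveolar type II-like nuclei, Chl1 had 7, 12 and 46 UMIs in Bleo_vehicle, 0 in each PBS_vehicle library and 1, 0 and 5 in Bleo_NVP. PBS_NVP, without bleomycin, held 22, 57 and 17, from the few nuclei given above. The adjusted p from edgeR was 0.139 for Bleo_vehicle from PBS_vehicle (log2 6.91, SE 2.30, 3.75% of genes called). It was 0.705 for Bleo_NVP from Bleo_vehicle (log2 -1.15, SE 1.38, 5.62% called). DESeq2 called the former, with an adjusted p of 0.013, and 3 of 17 alternatives passed (adjusted p of 0.0002 to 0.402). In venous endothelium, Sntg1 differed by 0.97 (SE 0.79, adjusted p = 0.903, 0.678% called) and -1.06 (SE 0.92, adjusted p = 0.728, 1.13% called), and both signs turned without Bleo_vehicle library 3, to -0.71 and 0.68. The comparisons of PBS_NVP with PBS_vehicle and of Bleo_NVP with PBS_NVP called no gene by edgeR in fibroblasts, with 46 and 316 genes at an unadjusted p under 0.05 and 0 called by DESeq2. With only the 6 PBS libraries and the replicate block, PBS_NVP against PBS_vehicle called 1 fibroblast gene, Tmeff2 (log2 0.93, SE 0.15, edgeR adjusted p = 0.0051), which was named after its value was seen. In that fit Sntg1 in fibroblasts differed by -0.63 (SE 0.27, adjusted p = 0.925), and Chl1 was too low for it.

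Some marker lists of other cells were higher in the Bleo_vehicle fibroblast sums, and others were not. The aerocyte capillary list tended lower, at 188 to 303 CPM against 254 to 449 in the other 9 libraries. So did the pericyte list, at 272 to 391 against 322 to 445. The alveolar type II list (9 genes) summed to 339 to 1292 CPM against 84.9 to 228 in the other 9 libraries, the club list to 307 to 889 against 38 to 359, and the interstitial macrophage or monocyte list to 26.7 to 72 against at most 10.9. Mesothelial markers, the list of the class richest in Sntg1, went the other way in sum, at 77.1 to 129 CPM against 142 to 236. Of the 8 genes of this list, 5, 4 and 4 had a UMI in the PBS_vehicle sums and 3, 7 and 8 in those of Bleo_vehicle. Wt1 and Lrrn4 had none in PBS_vehicle, so the sum there rested on part of the list. The neuroendocrine list summed to at most 1.02 CPM in Bleo_vehicle fibroblasts. In fibroblasts with Sntg1, mesothelial markers summed to 112, 99.2 and 148 CPM and in those without to 71.1, 92.6 and 125. The part of these lists, the mesothelial list included, in the levels of the 3 genes was not tested.

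The partners of each gene were followed in fibroblasts with lists of 20, 21 and 19 genes, and with 20 genes of activated fibroblast matrix. In Bleo_vehicle against PBS_vehicle, edgeR called 5.59% of the 10429 genes, 4.29% higher and 1.3% lower. In Bleo_NVP against Bleo_vehicle it called 8.06%, 2.7% higher and 5.36% lower. The 2 comparisons share the Bleo_vehicle libraries. The median log2 difference over all genes tested was -0.00 in the former and -0.05 in the latter.

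Of the Chl1 list, L1-family adhesion molecules and their partners, 15 of 20 genes were tested, 2 rose and 1 fell in Bleo_vehicle, with a median of 0.21. Ank3, an ankyrin of the membrane skeleton, rose from 31.1, 62.6 and 31.3 CPM in PBS_vehicle to 86.7, 183 and 147 in Bleo_vehicle (log2 1.77, SE 0.32, adjusted p = 0.00698). Sema3a, a secreted guidance cue whose signal Chl1 can relay, rose from 15.8, 9.43 and 24.3 to 65.0, 39.6 and 53.1 CPM (log2 1.67, SE 0.34, adjusted p = 0.012). Cntn1, a contactin, fell from 46.4, 32.8 and 44.7 to 1.27, 11.9 and 12.2 CPM (log2 -2.01, SE 0.37, adjusted p = 0.00698). For each of the 3 genes, named because they were called, the Bleo_vehicle libraries did not overlap those of PBS_vehicle. The share of all tested genes without overlap was not counted. In Bleo_NVP against Bleo_vehicle, Cntn1 rose (log2 1.72), Ank3 fell (-1.45) and Sema3a fell (-1.72), and the list median was 0.19. These calls rested on single libraries, with 0, 1 and 2 genes of the list called without Bleo_NVP library 1, 2 or 3 and 2 without Bleo_vehicle library 2. Sema3a is also among the leading genes of the alveolar type I cluster. The alveolar type I list summed to 353 to 512 CPM in Bleo_vehicle fibroblasts and to 172 to 400 in the other 9 libraries. The part of this list and of the alveolar type II list in the levels of Ank3 and Sema3a was not tested.

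The close relatives of Chl1 did not pass the test or were too low for it. Nrcam stood at 169, 217 and 361 CPM in PBS_vehicle and at 303, 283 and 287 in Bleo_vehicle (log2 0.23, SE 0.31, adjusted p = 0.766). L1cam had 28 UMIs and Nfasc 31 over all 12 fibroblast sums, of which 14 and 26 lay in Bleo_vehicle. Of the Hmga2 list, the HMGA, let-7 and TGF-beta genes, 13 of 21 were tested and edgeR called none in Bleo_vehicle against PBS_vehicle (median 0.02), where 4 had an unadjusted p under 0.05 and DESeq2 called 2. In Bleo_NVP against Bleo_vehicle, Tgfbr2, the type II TGF-beta receptor, fell (log2 -0.60, SE 0.17, adjusted p = 0.0442), from 723, 593 and 498 to 413, 416 and 366 CPM. That call was lost with RLE scaling, with stricter nuclei and with only the 6 libraries compared. Hmga1, a close relative of Hmga2, had 11 UMIs in all, and Lin28b, a let-7 antagonist, had 30.

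Of the Sntg1 list, syntrophins and the dystrophin complex, 14 of 19 genes were tested. Sntb1, beta-1 syntrophin, rose from 7.92, 10.9 and 6.39 CPM to 11.5, 19.97 and 46.6 (log2 1.74, SE 0.40, adjusted p = 0.0192) and fell in Bleo_NVP (log2 -1.87, SE 0.42, adjusted p = 0.0173). The Bleo_vehicle libraries did not overlap those of PBS_vehicle, which was not counted over all genes, and library 3 stood highest. Sntb2 (log2 -0.17) and Sntg2 (log2 0.35) were not called in Bleo_vehicle against PBS_vehicle, with adjusted p of 0.592 and 0.615, and the list median was 0.04. Sgce, epsilon-sarcoglycan, rose in Bleo_NVP against Bleo_vehicle (log2 0.68, SE 0.17, adjusted p = 0.0235), where the median was 0.08. With only the 6 libraries compared, edgeR called 0 genes of this list in either comparison.

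The matrix list, whose choice was made with results of these libraries known, is no independent evidence of direction. Of 16 of 20 genes tested, 8 rose in Bleo_vehicle and none fell, with a median of 2.33, and 3 were called with only the 6 libraries compared. Spp1 stood at 503, 119 and 37.1 CPM in Bleo_vehicle and at 0.943, 0 and 0 in PBS_vehicle, with a fitted log2 of 8.49. The interstitial macrophage or monocyte list summed to 72.0, 35.5 and 26.7 CPM in the same Bleo_vehicle fibroblasts, against at most 10.9 in the other groups. The part of this list in the level of Spp1 was not tested. Adam12, a metalloproteinase, rose from 10.9, 17.9 and 8.94 to 482, 71.2 and 54.5 CPM (log2 3.93, SE 0.85, adjusted p = 0.0241). Wisp1 (log2 3.36) and Timp1 (3.13) followed. Like Chl1 and Hmga2, all 4 stood highest in library 1. In Bleo_NVP against Bleo_vehicle 8 fell, led by Spp1 (-8.22), Adam12 (-3.87), Timp1 (-3.83) and Sfrp1 (-3.66), with a median of -1.83. Genes too low for the test included Fst, with 232 of 245 UMIs in Bleo_vehicle, Postn with 80 of 108 and Grem1 with all 20.

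**Figure D5:**
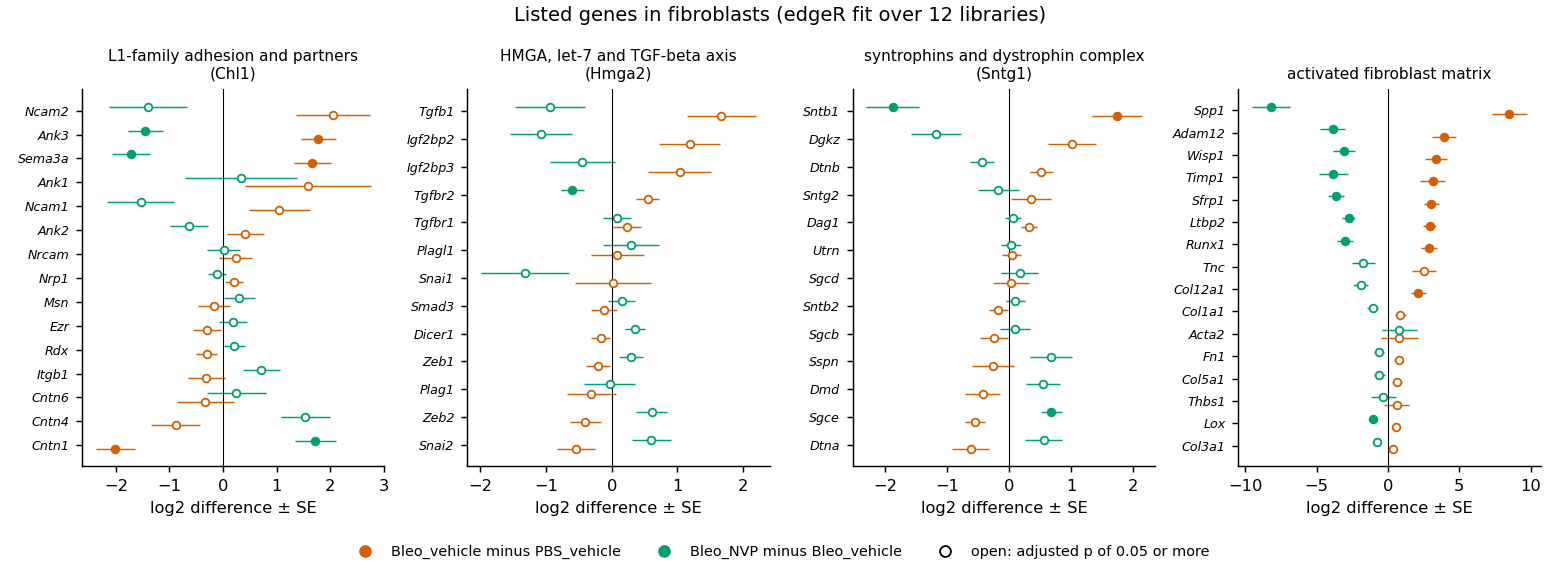
Fitted log2 differences ± SE (x axis) in fibroblasts for the tested genes (y axis) of the 4 lists, 1 list per panel and 1 tested gene of the syntrophin list not drawn, with Bleo_vehicle minus PBS_vehicle in orange and Bleo_NVP minus Bleo_vehicle in green. Filled points passed an adjusted p of 0.05, and the matrix list lies to the right in the former (median 2.33) and to the left in the latter (median -1.83).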

How the data were processed

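Nuclei of 12 frozen mouse lungs, 3 per group, were profiled by the authors with droplet 3' single-nucleus RNA sequencing. The deposited values are counts, raw UMIs per gene and barcode from Cell Ranger (7.2.0 in the file headers, 7.0 in the submitters' processing notes, which also name Seurat 4.4.1), on mm10, and they were not normalized. The authors' later removal of ambient RNA and doublets is not in these files.

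Nuclei with 200 to 6000 genes and at most 5% mitochondrial UMIs were kept. In each library those with the highest doublet scores (scrublet in scanpy 1.11.5) were left out, 2708 in all. Their number was set in advance, at 0.8% per 1000 nuclei of the library. Nuclei were clustered (2000 variable genes with the 3 genes left out, 30 components, Harmony by library, Leiden at resolution 1, and 0.4 within fibroblasts). Clusters were named from marker lists with at least 3 markers 2-fold or more above the other nuclei clustered. Of these, the list with the highest mean log ratio gave the name. Some clusters were then left unnamed for their leading genes or low depth. UMIs were summed per library and class, and tested with edgeR 4.0.16 (robust quasi-likelihood, TMM, filterByExpr, all 12 libraries in the fit, adjusted p under 0.05), for classes with at least 20 nuclei in at least 2 libraries per group. CPM of the 3 genes are raw UMIs per 1000000 UMIs of the class, and CPM of other genes are TMM-scaled. The scripts were tested on simulated data. P-values measure the spread between these libraries. Low counts set the precision: a class with 0 UMIs allows up to 3. Depth was 3556084 to 61947690 UMIs per library.

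The genes and the lists were chosen with earlier results of these data known. Hmga2 and Chl1 passed the fibroblast filter through Bleo_vehicle. Named besides the 3 genes were the family members (1 gene of the syntrophin list is counted but not reported here), up to 4 called genes per list and direction, and the 5 nearest genes by each measure of likeness. Alternatives were RLE scaling, no filter, DESeq2 1.42.0, a replicate block, only the 6 libraries compared, each library left out, doublets kept, stricter nuclei (500 UMIs or more, mitochondrial share up to 1%), no batch correction, resolution 0.8 and 1000 UMIs. Same-numbered PBS_vehicle and PBS_NVP libraries deviated together in the data, so that comparison was also fitted within the 6 PBS libraries with the number as a block.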

Additional observations from a re-analysis of the deposited data

How the results depend on the processing

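The fitted difference of Bleo_vehicle from PBS_vehicle and from Bleo_NVP in fibroblasts kept its direction for Chl1, Hmga2 and Sntg1 under every alternative run. The same counts chose the genes, so this direction was set in advance and its keeping is no support. Leaving out 1 library at a time moved the mean Bleo_vehicle level from 98.4 to 272 CPM for Chl1, from 10.8 to 63.2 for Hmga2 and from 86.7 to 108 for Sntg1. The fitted log2 differences then ranged from 7.04 to 9.20 and from -7.39 to -5.91 for Chl1, and from 5.38 to 9.90 and from -10.05 to -5.36 for Hmga2. Sntg1 outside fibroblasts, Bleo_NVP against Bleo_vehicle, passed the threshold with DESeq2 (-2.37, adjusted p = 0.0063), with the replicate block (-2.35, adjusted p = 0.034) and with only the 6 libraries compared (-2.42, adjusted p = 0.032). Leaving out 1 library gave -2.63 to -1.85, and 2 of these 12 fits passed, without PBS_NVP library 1 (adjusted p = 0.041) or 2 (adjusted p = 0.030). Sntg1 in venous endothelium ranged from -0.71 to 2.11 and from -1.46 to 0.68 with 1 library left out, turning sign without Bleo_vehicle library 3. The count of called genes over the 4 lists was 12 and 14 in the 2 comparisons of Bleo_vehicle, 22 and 24 with no filter, 17 and 20 with the replicate block, 6 and 7 with only the 6 libraries and 7 and 9 with stricter nuclei. It ranged from 5 to 16 and from 4 to 17 with 1 library left out: 5, 7 and 6 without PBS_vehicle library 1, 2 or 3 in the former, and 4, 4 and 5 without Bleo_NVP library 1, 2 or 3 and 9 without Bleo_vehicle library 2 in the latter. Chl1 in the fibrotic-like subcluster had a mean of 351 CPM, 581 with doublets kept and 503 at resolution 0.8 in the part named by markers. In the part sharing most nuclei with the original subcluster, Chl1 was at 220 CPM and Hmga2 at 0.716 CPM, against 130 in the marker-named part and 101 at resolution 0.4. Sharing was the rule first used, and the marker rule replaced it after both values had been seen. The share of nuclei with Hmga2 was 0.45 points lower with Chl1 than without, on the mean of libraries (-0.45), and -2.17 in stricter nuclei. Sntg1 was found in 4.08% of Bleo_vehicle fibroblasts at 500 UMIs and in 6.21% at 1000. Causes of these shifts were not tested. The labels give replicate numbers 1 to 3 in each group. Same-numbered libraries of PBS_vehicle and PBS_NVP deviated together (correlations of 0.37, 0.42 and 0.64), and those of the other 5 pairs of groups did not do so in every pair (-0.08 to 0.29). The replicate block within the 6 PBS libraries, added after the data had been seen, called 1 fibroblast gene against 0 without it, and 0 with the block over all 12 libraries. In alveolar type I-like nuclei the paired fit called 19 genes against 0, and Sntg1 was too low for it. Depth limits Hmga2 most, since 33 nuclei carried it in Bleo_vehicle fibroblasts.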
